A study of Mus musculus with 8 samples.

Results

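The amino acid transporter genes described here are the 40 protein-coding mouse genes whose symbols start with Slc1a, Slc3a, Slc7a, Slc36a or Slc38a, out of 21883 protein-coding genes in the RefSeq table of GRCm38.p6, the assembly known as mm10. They comprise 7 Slc1a, 2 Slc3a, 16 Slc7a, 4 Slc36a and 11 Slc38a genes. Slc7a6os meets the symbol rule as a neighbour of Slc7a6 on the opposite strand and is not itself a transporter. The chromatin data came from ATAC-seq, in which a transposase cuts accessible DNA, of type 1 conventional dendritic cells (cDC1s) sorted from tumours of the mouse melanoma line B16-OVA, which carries ovalbumin as a model antigen. One group held 4 libraries of cDC1s taken 21 days after tumour inoculation and the other held 4 libraries taken 7 days after it. All hosts were labelled wild type, and the labels name no treatment other than the tumour in either group. Whether each library came from its own animal or from pooled animals is not labelled, so the tests speak only of the spread among these 8 libraries. The 128057 shared regions held 14021151 to 27737040 counts in a day 21 library and 9440223 to 16063736 in a day 7 library.

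Cells take up amino acids through carriers that differ in substrate and in coupling. Slc1a proteins carry glutamate or small neutral amino acids with sodium. Slc7a proteins exchange large neutral amino acids, cystine or cationic amino acids, many of them only when paired with the heavy chain Slc3a2 (CD98). Slc38a proteins bring in glutamine and alanine with sodium, and Slc36a proteins move small amino acids with protons, often out of lysosomes. In dendritic cells this supply feeds protein synthesis and the kinase complex mTORC1, and cystine taken up through Slc7a11 feeds glutathione; Slc38a2 is known as a glutamine carrier of cDC1s in tumours.

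At each gene the counts of all regions overlapping 1000 bp on either side of its annotated ends were summed (gene ends), and separately those of other regions nearest to it within 50 kb (distal). A region lay at the ends of 23 members, and 33 members had a distal region, together 281 regions. Slc1a1, Slc38a5, Slc3a1, Slc7a12 and Slc7a9 had neither. Of the 23, 21 passed the filter on low counts, and Slc1a6 and Slc38a11 did not. All 33 members with distal regions passed. Values are CPM (counts scaled to the library total), and changes are log2 fold changes of day 21 over day 7 with their standard error. A call means an edgeR quasi-likelihood adjusted p below 0.05 over all genes or all regions. In sorted bulk cells, fewer cells with an open region and less opening in each cell cannot be told apart.

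Calls among the transporter genes fell on single members and in both directions. At gene ends 2 of 21 were called higher at day 21 (Slc7a8 and Slc7a1) and 4 lower (Slc1a4, Slc36a1, Slc1a5 and Slc38a2), while 15 were not called. Over all 13569 genes tested 31.3% were called, 6.71% higher and 24.6% lower, so the 28.6% of members called was near the background. At 4 of the 21, day 21 and day 7 libraries had no overlap, against 26.5% of all genes. The median change was −0.00 among members and −0.09 over all genes. With offsets trended on abundance, which remove the mean shift of gene ends, 3 members were called higher and 1 lower, against 1618 higher and 1654 lower of all genes in place of 911 and 3338. The fraction of all counts that fell at gene ends moved with these calls, at 36.4% ± 0.286 at day 21 and 38.6% ± 0.602 at day 7 (SD, n = 4 each), and its part in them was not tested.

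In distal regions 2 of 33 members were called higher (Slc38a9 and Slc36a3) and 6 lower (Slc38a10, Slc1a2, Slc38a2, Slc1a5, Slc38a3 and Slc7a13), and 25 were not called. The share called, 24.2%, compares with 29.7% of 14486 genes, of which 18.3% were higher and 11.4% lower. Separation of the days without overlap was seen at 10 of the 33, against 27% of all genes, and the median change was 0.06 among members and 0.04 over all genes. With trended offsets the counts of members stayed at 2 and 6, while all genes split into 2164 higher and 2172 lower in place of 2653 and 1653. Slc1a5 and Slc38a2 were called lower both at their ends and in their distal regions. Members that were not called lay between −0.25 (Slc36a2) and 0.26 (Slc7a4) at gene ends and between −0.09 (Slc36a1) and 0.46 (Slc38a8) in distal regions. The end regions of Slc38a6 and Slc7a6os also lie at the ends of Trmt5 and Prmt7, so their values cannot be told apart from those genes. Across the 20 members tested in both sets, the 2 changes had the same sign at 13 (65%), against 53.9% of 11029 genes.

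**Figure D1:**
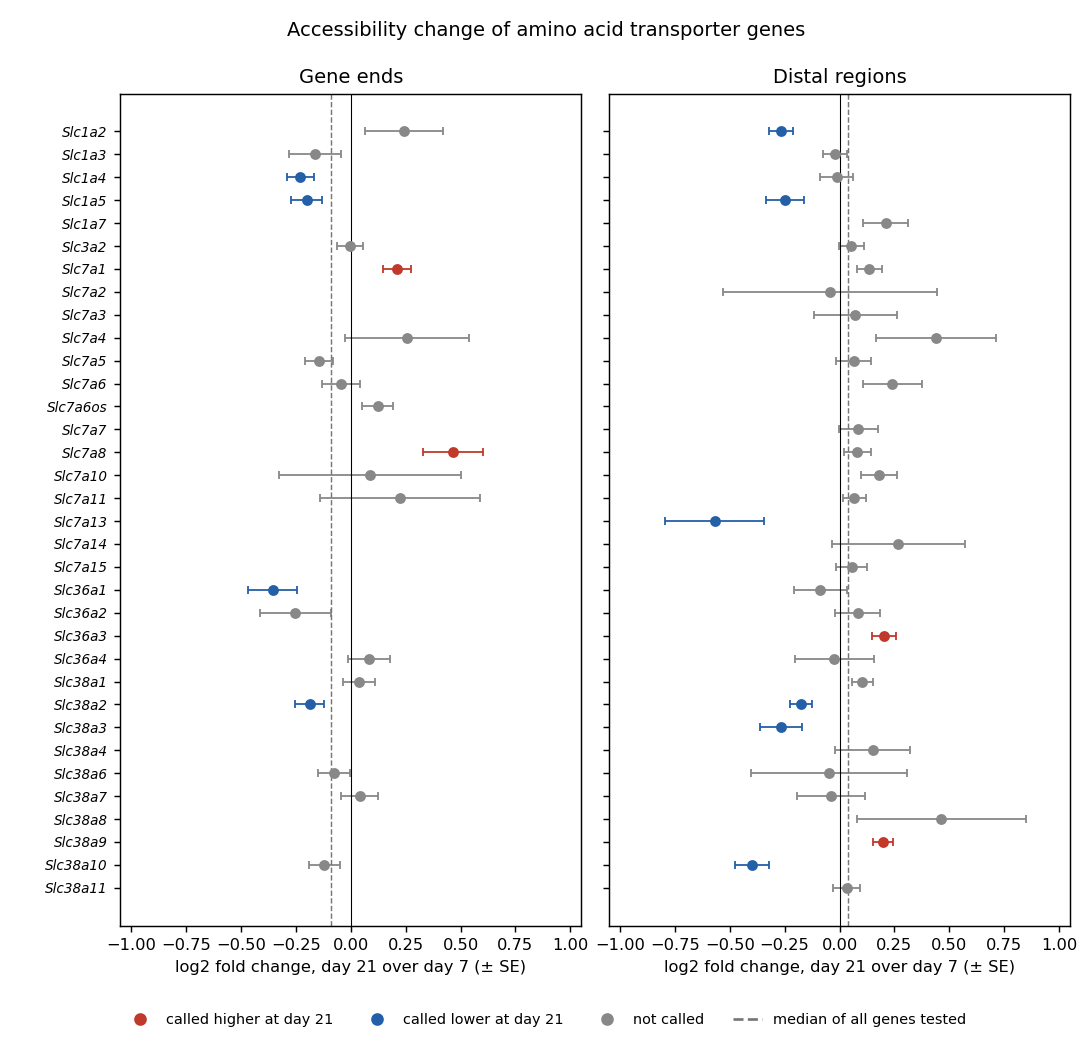
Log2 fold change of day 21 over day 7 for each transporter gene tested, at gene ends and in distal regions, with bars of 1 standard error and colour for genes called higher, called lower or not called. Most members sit within 0.5 of 0, and called members lie on both sides of it.

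Among the carriers of neutral amino acids in the Slc1a family, Slc1a4 (ASCT1), an exchanger of serine and alanine, had 62.3, 66.8, 58.9 and 58.9 CPM at its ends in the 4 day 21 libraries, against 73.3, 71.7, 69.7 and 74.1 CPM in the 4 day 7 libraries. Every day 21 library lay below every day 7 library, and the change was −0.23 ± 0.06 (edgeR adjusted p = 0.00233). It missed the threshold with trended offsets (adjusted p = 0.0570). Most of the signal lay in 1 region over the promoter, chr11:20332502-20333491, at 56.8 ± 3.67 CPM at day 21 and 66.4 ± 1.31 CPM at day 7 (−0.22 ± 0.06, adjusted p = 0.00852). Its distal sum changed by −0.01 ± 0.08 and was not called.

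Slc1a5 (ASCT2), the main exchanger of glutamine in many dividing cells, had 39.4, 41.6, 42.6 and 39.4 CPM at its ends at day 21, against 46.5, 44.3, 47.5 and 48.6 CPM at day 7. All day 21 libraries were below all day 7 libraries (−0.20 ± 0.07, edgeR adjusted p = 0.0191). The region chr7:16781068-16781524 at 1 end changed by −0.28 ± 0.09, with 21.9 ± 1.29 CPM at day 21 and 26.6 ± 2.11 CPM at day 7. Its distal sum was 32.2, 25.7, 31.6 and 32.0 CPM at day 21 and 34.4, 29.0, 40.6 and 39.6 CPM at day 7 (−0.25 ± 0.09, adjusted p = 0.0224). Here the days overlapped, because replicate 2 of day 7 lay below 3 of the day 21 libraries. The distal region with the smallest p, chr7:16784747-16785067, lies inside the gene and changed by −0.53 ± 0.16. Both calls depended on single libraries. At the ends the adjusted p was 0.0509 without replicate 3 of day 7, 0.0722 without its replicate 4, 0.0528 without replicate 1 of day 21 and 0.0661 without its replicate 4, and 0.271 with trended offsets. The distal call was lost without replicate 3 (0.143) or 4 (0.144) of day 7 or replicate 2 of day 21 (0.129), and with DESeq2 (0.0539).

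The glutamate carriers Slc1a2 and Slc1a3, best known from glial cells, had 6.33 ± 0.579 and 12.0 ± 1.45 CPM at their ends at day 21, against 5.31 ± 0.821 and 13.5 ± 1.91 CPM at day 7, and neither was called there. The end regions of Slc1a2 lie 47.4 kb upstream and 85.4 kb downstream of its RefSeq promoter start, so this sum (0.24 ± 0.18) leaves out the promoter. The region within 1000 bp of the promoter start was not called, with 1.27 ± 0.381 CPM at day 21 and 2.00 ± 0.558 CPM at day 7 (−0.64 ± 0.34). In distal regions Slc1a2 had 83.2, 75.9, 85.3 and 80.3 CPM at day 21, against 96.2, 98.0, 98.8 and 97.7 CPM at day 7. The days were well apart (−0.27 ± 0.06, edgeR adjusted p = 1.05e-04), and this call held under all 16 alternatives. Of its 24 regions tested, 7 were called lower and 0 higher, against 9.85% lower and 9.49% higher of all 121955 regions. All 7 lie between 48.7 and 90.3 kb downstream of the RefSeq promoter start, in the later part of the gene or beyond its finish. The one with the smallest p, chr2:102764787-102765330, had 4.08, 1.80, 3.89 and 3.17 CPM at day 21, against 7.64, 8.71, 8.52 and 6.96 CPM at day 7 (−1.30 ± 0.19, adjusted p = 4.32e-07). The steepest fold among them lay beyond the finish at chr2:102796615-102796860 (−2.22 ± 0.41), where counts were only 6 to 28 per library. These regions are 14.4 to 56.0 kb from Cd44, the hyaluronan receptor, which is the next gene. Of the 7 calls, 4 held under all 14 alternatives run on regions, and 3 were lost in 1 or 2 fits that left out a library. Slc1a3 had 1 region called higher and 2 lower of 27, and its distal sum, 106 ± 6.79 CPM at day 21 and 107 ± 3.36 CPM at day 7, was not called.

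**Figure D2:**
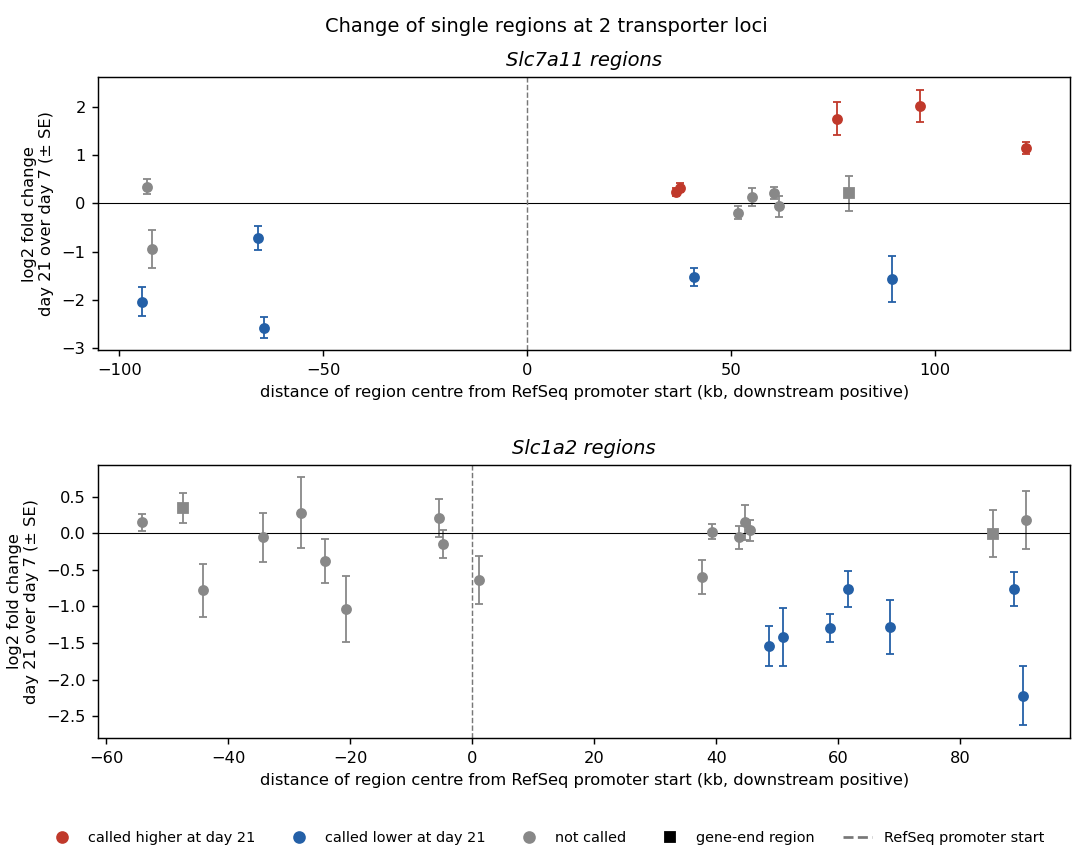
Log2 fold change of day 21 over day 7 (± SE) of each region tested at Slc7a11 and at Slc1a2, placed by its distance from the RefSeq promoter start in kb, with squares for gene-end regions. At Slc1a2 the 7 called regions are all lower and lie downstream, whereas at Slc7a11 5 regions are called higher and 5 lower.

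The heavy chain Slc3a2 (CD98), which carries Slc7a5, Slc7a8 and Slc7a11 to the cell surface, had 77.3, 74.3, 75.3 and 64.6 CPM at its ends at day 21, against 70.4, 74.1, 73.9 and 72.6 CPM at day 7. The sum was not called (−0.00 ± 0.06, edgeR adjusted p = 0.983), but its 2 regions, described after their values were seen, differed in direction. At the finish of the gene, chr19:8705734-8706488 had 26.2, 24.7, 24.3 and 20.7 CPM at day 21, against 16.2, 15.5, 17.8 and 18.6 CPM at day 7. This region was called higher without overlap (0.48 ± 0.10, adjusted p = 2.01e-04). At the other annotated end, 9.28 kb upstream of the RefSeq promoter start, chr19:8722737-8723611 had 48.9 ± 3.40 CPM at day 21 and 55.8 ± 2.15 CPM at day 7 (−0.19 ± 0.07, adjusted p = 0.0410), and 6 of the 8 fits that left out 1 library lost that call. The 2 regions at the promoter start itself lie outside the gene-end sum and were counted as distal. Together they had 56.4 ± 4.68 CPM at day 21 and 53.9 ± 3.71 CPM at day 7 and were not called (0.06 ± 0.07, adjusted p = 0.544).

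Among its light chains, Slc7a8 (LAT2), an exchanger of large and small neutral amino acids, had 10.2, 9.69, 12.5 and 11.9 CPM at its ends at day 21, against 8.64, 6.90, 8.09 and 8.39 CPM at day 7. Every day 21 library lay above every day 7 library (0.47 ± 0.14, edgeR adjusted p = 0.00605), and this gene-end call held under all 18 alternatives. The gain lay in the region over the promoter, chr14:54781609-54782110, at 8.45 ± 1.28 CPM at day 21 and 5.19 ± 1.02 CPM at day 7 (0.69 ± 0.17), whereas the neighbouring region chr14:54781086-54781389 changed by −0.07 ± 0.25. The centre of the promoter region is also only 1.48 kb from an annotated end of Rnf212b, the next gene. Within the gene, 46.4 kb downstream of the promoter start, chr14:54735076-54735899 had 12.8 ± 1.00 CPM at day 21 and 8.68 ± 1.06 CPM at day 7 (0.55 ± 0.13, adjusted p = 0.00136). The whole distal sum changed by 0.08 ± 0.06 and was not called.

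Slc7a5 (LAT1), the leucine carrier best known for feeding mTORC1, had 50.8, 58.8, 55.1 and 52.7 CPM at its ends at day 21, against 55.3, 62.9, 63.3 and 59.0 CPM at day 7. The days overlapped and the sum was not called (−0.14 ± 0.06, edgeR adjusted p = 0.0767). It passed under 5 alternatives, among them windows of 500 bp (0.0225) and the fit without replicate 1 of day 7 (0.0346). Of its 2 end regions, chr8:121907449-121908166 was called lower (−0.22 ± 0.08, adjusted p = 0.0389) and chr8:121906428-121906945 changed by −0.03 ± 0.09. The sums of the light chains Slc7a6, Slc7a7 and Slc7a10 were not called in any set tested. At Slc7a10, 1 of 7 regions was called higher and 0 lower, against 9.49% and 9.85% of all regions. This region, chr7:35178236-35178598, had 3.02 ± 1.09 CPM at day 21 and 1.17 ± 0.509 CPM at day 7 (1.30 ± 0.31, edgeR adjusted p = 0.00115). Slc7a6 had 24.0 ± 2.43 CPM at its ends at day 21 and 24.8 ± 0.788 CPM at day 7, and Slc7a7, whose 3 regions lie at its RefSeq promoter starts and were counted as distal, had 26.6 ± 0.568 CPM at day 21 and 25.1 ± 2.17 CPM at day 7.

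Slc7a11 (xCT), the cystine and glutamate exchanger that supplies glutathione, changed strongly in single regions whose directions cancelled in the sum. Its distal sum was 138, 141, 144 and 125 CPM at day 21, against 133, 130, 136 and 123 CPM at day 7, which overlapped (0.07 ± 0.05, edgeR adjusted p = 0.352). Its single gene-end region was not called at 1.78 ± 0.558 CPM at day 21 and 1.61 ± 1.23 CPM at day 7. Of its 17 regions, 5 were called higher and 5 lower, against 9.49% and 9.85% of all regions. They were described after their values were seen. Of these 10 calls, 6 held under all 14 alternatives run on regions, and the other 4, at chr3:50509510-50509877, chr3:50406704-50407211, chr3:50405865-50406314 and chr3:50353986-50354294, were lost in 1 to 5 of the fits that left out a library. The next protein-coding genes, Pcdh18 and Noct, lie 564 to 716 kb from these 10 regions.

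The region with the smallest p among all transporter regions, chr3:50507639-50508432, lies 64.4 kb upstream of the RefSeq promoter start. It had 2.81, 1.08, 1.47 and 1.28 CPM at day 21, against 9.22, 12.1, 8.43 and 8.82 CPM at day 7. The days were far apart (−2.57 ± 0.21, edgeR adjusted p = 4.62e-15). A neighbour 66.1 kb upstream, chr3:50509510-50509877, changed by −0.71 ± 0.25, and another 94.3 kb upstream, chr3:50537732-50538122, by −2.04 ± 0.31. Inside the gene, 41.0 kb downstream, chr3:50402425-50402793 had 6.75, 2.89, 2.89 and 2.81 CPM at day 21, against 11.4, 10.7, 9.44 and 11.1 CPM at day 7 (−1.52 ± 0.19, adjusted p = 2.52e-09). In each of these 4 regions every day 21 library was below every day 7 library.

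The gains lay inside the gene and beyond its finish. Beyond the finish, 122.4 kb downstream, chr3:50320834-50321598 had 16.8, 16.2, 20.5 and 14.3 CPM at day 21, against 7.56, 7.65, 7.42 and 7.70 CPM at day 7. Every day 21 library lay at or above 14.3 CPM and every day 7 library below 8 CPM (1.15 ± 0.13, edgeR adjusted p = 1.86e-10). At 96.3 kb downstream, chr3:50347084-50347448 had 3.04 ± 0.929 CPM at day 21 and 0.768 ± 0.397 CPM at day 7 (2.03 ± 0.34). At 76.2 kb, chr3:50367212-50367687 changed by 1.76 ± 0.35. The 2 called regions with the most counts, chr3:50405865-50406314 and chr3:50406704-50407211, changed by 0.33 ± 0.10 and 0.24 ± 0.08. They lie apart from these gains, 37.5 and 36.7 kb downstream, next to chr3:50402425-50402793 at 41.0 kb, which was called lower. The fifth region called lower, chr3:50353986-50354294, lies among the gains at 89.5 kb and changed by −1.58 ± 0.48, on only 5 to 22 counts per library. The region over the promoter start itself, which lies over 50 kb from both annotated ends and so outside the sums, had 11.7 ± 0.928 CPM at day 21 and 13.4 ± 1.94 CPM at day 7 and was not called (−0.21 ± 0.12, adjusted p = 0.179).

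**Figure D3:**
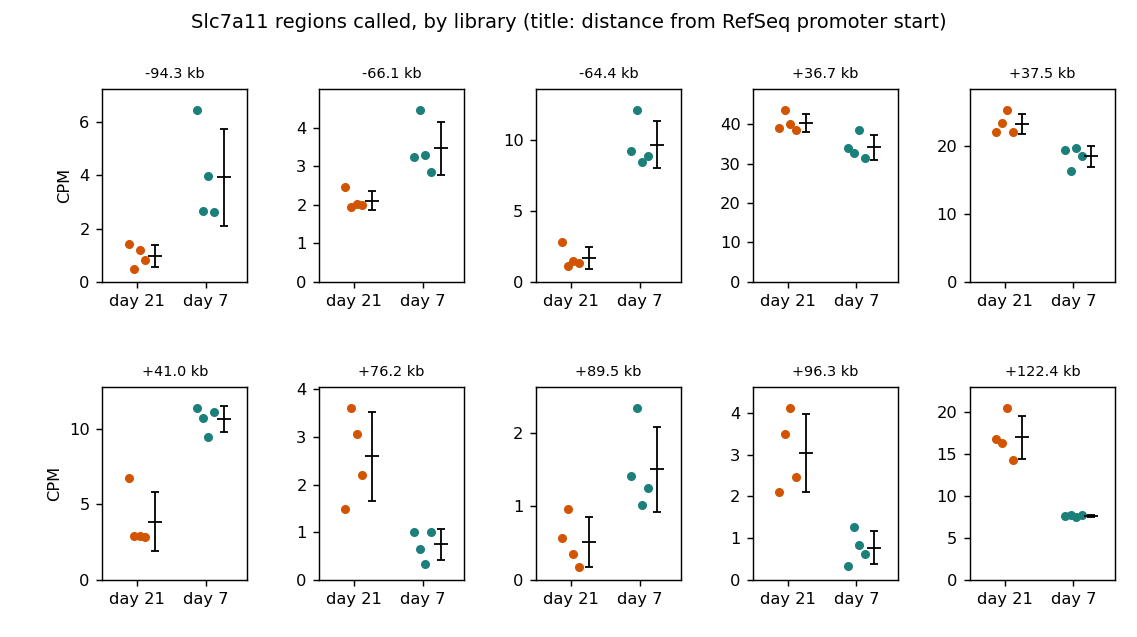
CPM of the 10 Slc7a11 regions called, in each day 21 and day 7 library (points), with the mean and SD beside them; panel titles give the distance from the RefSeq promoter start in kb. Days separate in 9 of the 10 regions, upward at +122.4 kb (16.9 against 7.58 CPM) and downward at −64.4 kb (1.66 against 9.65 CPM).

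Markers of mature dendritic cells moved with these losses. Their summed gene ends held 103, 81.5, 89.6 and 93.0 CPM at day 21, against 161, 170, 166 and 154 CPM at day 7. Of 8 markers 1 was called higher and 6 lower, against 6.71% and 24.6% of all genes. Replicate 1 of day 21, the highest of its group for these markers, was also the highest of its group in 4 of the 5 lower Slc7a11 regions. It also had the fewest counts of its group (14021151). Of the Slc7a11 gains it was the lowest of its group at chr3:50347084-50347448, chr3:50367212-50367687 and chr3:50405865-50406314, but not at chr3:50320834-50321598 or chr3:50406704-50407211. The same library was the highest of its group in most of the lower Slc1a2 regions, though not at chr2:102754958-102755240 or chr2:102767905-102768290. Without replicate 1 of day 21 the changes were −2.89 at chr3:50507639-50508432 and −1.90 at chr3:50402425-50402793, both still called. In both regions this library lay nearest the day 7 values, so leaving it out could only steepen the falls. These fits therefore cannot weigh the part of the markers. Other marker sums also separated the days without overlap. Gene ends of T and NK cell markers and distal regions of melanoma and stromal markers were lower at day 21. Gene ends of macrophage markers and distal regions of cDC1 and B cell markers were higher. The part of the mature dendritic cell markers, or of these others, in the result was not tested.

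Of the carriers of cationic amino acids, Slc7a1 (CAT1), which takes up arginine and lysine, had 66.2, 79.0, 79.6 and 71.2 CPM at its ends at day 21, against 64.2, 56.4, 68.0 and 66.3 CPM at day 7. The days overlapped narrowly (0.21 ± 0.06, edgeR adjusted p = 0.00763), and the call was lost without replicate 2 of day 7 (0.0508) or replicate 2 of day 21 (0.0583). All of that signal lay in 1 region over the promoter, chr5:148398922-148400429. Of its 19 regions, 4 were called higher and 1 lower, against 9.49% and 9.85% of all regions. In the gene, 2.30 kb from the start, chr5:148397427-148397772 had 13.2 ± 2.23 CPM at day 21 and 9.05 ± 1.47 CPM at day 7 (0.52 ± 0.14, adjusted p = 0.00322). Its distal sum was not called (0.14 ± 0.06, adjusted p = 0.0677). Slc7a2, Slc7a3 and Slc7a4 were not called in any set tested. Slc7a13, a carrier of acidic amino acids known from kidney, had few counts, 2.81, 2.17, 2.36 and 3.59 CPM in distal regions at day 21 against 4.32, 3.82, 4.22 and 4.10 CPM at day 7. The days did not overlap (−0.57 ± 0.23, adjusted p = 0.0488), but 9 of 16 alternatives lost this call. Its called region, chr4:19850603-19851027, changed by −0.85 ± 0.29.

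Among the sodium-coupled carriers, Slc38a2 (SNAT2), which brings in glutamine and alanine, had 49.1, 60.9, 57.1 and 57.8 CPM at its ends at day 21, against 69.7, 63.1, 57.1 and 66.2 CPM at day 7. The days overlapped at replicate 3 of day 7 (−0.19 ± 0.07, edgeR adjusted p = 0.0240). This call was lost with trended offsets (0.311), with windows of 2000 bp (0.0890), and without replicate 1 (0.113) or 4 (0.0821) of day 7 or replicate 1 of day 21 (0.155). Its 2 end regions changed by the same −0.19 and neither was called alone. In distal regions Slc38a2 had 140, 138, 131 and 129 CPM at day 21, against 158, 153, 154 and 143 CPM at day 7. Here the days did not overlap (−0.17 ± 0.05, adjusted p = 0.00520), and the call held under all 16 alternatives.

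The distal loss at Slc38a2 lay in 1 region 10.2 kb upstream of its promoter, chr15:96709387-96710494. It had 39.5, 43.4, 43.9 and 36.8 CPM at day 21, against 54.8, 60.9, 57.4 and 49.1 CPM at day 7, without overlap (−0.44 ± 0.07, edgeR adjusted p = 5.10e-06). Of the 18 regions of Slc38a2 tested, this was the 1 called lower and 2 were called higher, against 9.85% and 9.49% of all regions. The 2 higher regions, chr15:96685284-96685812 and chr15:96695901-96696113, changed by 0.80 ± 0.25 and 0.63 ± 0.21 at much lower counts. Slc38a1 (SNAT1), the neighbour of Slc38a2 on chromosome 15, had 40.4, 44.4, 47.0 and 41.2 CPM at its ends at day 21, against 38.8, 46.1, 44.4 and 39.6 CPM at day 7. The days overlapped fully and the sum was not called (0.04 ± 0.07, adjusted p = 0.721). Its distal sum, 277 ± 15.4 CPM at day 21 and 258 ± 18.2 CPM at day 7, was not called either (0.10 ± 0.05, adjusted p = 0.0970), though it passed with a 20 kb limit (0.0391). Of its 23 regions, 5 were called higher and 0 lower, against 9.49% and 9.85% of all regions. The one with the smallest p, chr15:96654722-96655148, had 28.4 ± 0.891 CPM at day 21 and 21.2 ± 3.80 CPM at day 7 (0.41 ± 0.09, adjusted p = 9.03e-04) and lies between the 2 genes, 11.5 kb from Slc38a1 and 32.5 kb from Slc38a2.

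Slc38a9, the lysosomal carrier that reports arginine to mTORC1, had no region within 1000 bp of its annotated ends. Its distal sum was 254, 268, 275 and 264 CPM at day 21, against 224, 216, 247 and 237 CPM at day 7, without overlap (0.20 ± 0.05, edgeR adjusted p = 5.99e-04), and the call held under all 16 alternatives. Of its 20 regions tested, 4 were called higher and 0 lower, against 9.49% and 9.85% of all regions. These 4 regions all lie beyond the finish of the gene. The one with the smallest p, chr13:112748026-112748481, had 38.0, 43.0, 42.6 and 37.9 CPM at day 21, against 28.8, 27.5, 33.0 and 28.0 CPM at day 7 (0.46 ± 0.08, adjusted p = 1.09e-05), and Plpp1, the next gene, is 52.5 kb away from it. The 2 regions at the RefSeq promoter start of Slc38a9, counted as distal, had 39.6 ± 1.96 CPM at day 21 and 40.7 ± 3.40 CPM at day 7 and were not called (−0.04 ± 0.07).

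Slc38a10 had 29.3, 30.1, 30.5 and 33.3 CPM in distal regions at day 21, against 36.0, 44.4, 41.0 and 41.8 CPM at day 7. This was the lowest adjusted p of the members' sums (−0.40 ± 0.08, edgeR adjusted p = 4.35e-05), without overlap. It rested on chr11:120189687-120190335, 38.7 kb upstream and 42.9 kb from Bahcc1, at 18.4 ± 1.18 CPM at day 21 and 27.2 ± 2.80 CPM at day 7 (−0.56 ± 0.09), and with a 20 kb limit the sum was not called (0.215). Slc38a3 (SNAT3), a glutamine carrier of liver and astrocytes, had 18.0, 19.1, 17.7 and 19.6 CPM in distal regions at day 21, against 20.4, 24.0, 23.6 and 21.9 CPM at day 7. The days did not overlap (−0.27 ± 0.10, adjusted p = 0.0269). Leaving out replicate 2 (0.0732) or 3 (0.0817) of day 7 or replicate 1 of day 21 (0.0576) ended the call. Its called region, chr9:107644569-107644935, is 9.36 kb from Gnai2.

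The proton-coupled carrier Slc36a1 (PAT1), which exports small amino acids from lysosomes, had 11.7, 10.6, 12.1 and 11.8 CPM at its ends at day 21, against 14.7, 14.4, 14.7 and 15.3 CPM at day 7. All of this lay in the region over its promoter, chr11:55204116-55204918, and the days did not overlap (−0.36 ± 0.11, edgeR adjusted p = 0.0117). With windows of 2000 bp the sum was not called (0.171). Its distal sum was not called (−0.09 ± 0.12). Slc36a3, a member of the same gene cluster on chromosome 11, had 152, 172, 179 and 150 CPM in distal regions at day 21, against 142, 127, 148 and 148 CPM at day 7. The days did not overlap (0.20 ± 0.05, adjusted p = 0.00242) and the call held under all 16 alternatives. Of its 7 regions tested, 2 were called higher and 0 lower, against 9.49% and 9.85% of all regions. Of these 2, chr11:55130952-55132313 lies in the gene with 59.9 ± 7.60 CPM at day 21 and 47.2 ± 4.59 CPM at day 7 (0.34 ± 0.07, adjusted p = 5.14e-04). The other, chr11:55154426-55155517 (0.24 ± 0.07), lies between Slc36a3 and Slc36a2, 3.25 kb from Slc36a3 and 3.50 kb from Slc36a2.

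**Figure D4:**
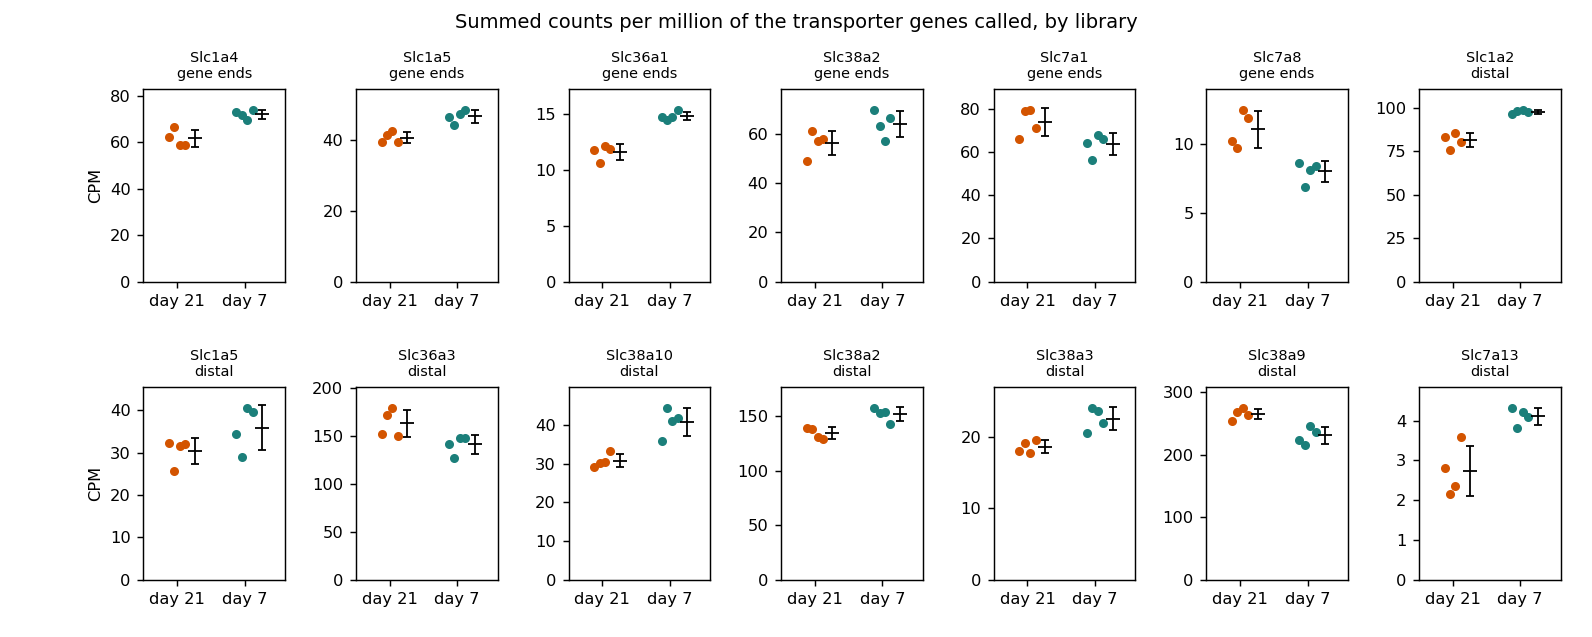
Summed CPM of each transporter gene called at its ends (6 genes) or in distal regions (8 genes), in every day 21 and day 7 library (points), with the mean and SD beside them. Axes start at 0, so each change can be read against the level: Slc38a10, for example, has 30.8 CPM at day 21 and 40.8 CPM at day 7.

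The promoters of the members whose gene-end sums were called are shown because regions of those sums cover them; at Slc38a2 neither of these regions was called alone. RefSeq holds a promoter for 30 of the 40 members and for 5 of the 6 called at their ends, and Slc1a5 has none in that table. Each sequence runs 5′ to 3′ on the gene's strand of GRCm38.p6, from 250 bases before the start to 50 after it. Capitals mark matches, on either strand, to TGATGCAA (a composite site of C/EBP and ATF factors, the response element of amino acid shortage), TGANTCA (AP-1), TGACNNNGC (antioxidant response element), CACGTG (E-box) or GGAAGT (core of ETS factors such as PU.1).
Slc1a4, chr11:20332664-20332963, minus strand: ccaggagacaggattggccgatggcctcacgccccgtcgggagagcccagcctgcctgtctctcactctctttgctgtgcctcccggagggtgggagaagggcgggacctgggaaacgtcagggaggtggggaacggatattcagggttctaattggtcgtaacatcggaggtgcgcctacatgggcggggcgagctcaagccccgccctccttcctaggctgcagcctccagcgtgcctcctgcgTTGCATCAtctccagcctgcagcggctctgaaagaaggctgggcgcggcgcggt
Slc36a1, chr11:55204090-55204389, plus strand: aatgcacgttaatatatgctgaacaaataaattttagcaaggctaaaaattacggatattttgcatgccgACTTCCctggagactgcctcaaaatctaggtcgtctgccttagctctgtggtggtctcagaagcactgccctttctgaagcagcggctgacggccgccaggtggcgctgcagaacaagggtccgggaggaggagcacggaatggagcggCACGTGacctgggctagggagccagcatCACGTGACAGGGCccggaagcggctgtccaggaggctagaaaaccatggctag
Slc38a2, chr15:96699679-96699978, minus strand: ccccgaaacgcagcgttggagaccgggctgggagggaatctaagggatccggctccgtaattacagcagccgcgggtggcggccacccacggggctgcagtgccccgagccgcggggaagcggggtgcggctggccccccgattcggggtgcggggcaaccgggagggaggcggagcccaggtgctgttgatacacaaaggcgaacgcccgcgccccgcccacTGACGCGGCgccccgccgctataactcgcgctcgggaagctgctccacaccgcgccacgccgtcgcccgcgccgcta
Slc7a1, chr5:148399855-148400154, minus strand: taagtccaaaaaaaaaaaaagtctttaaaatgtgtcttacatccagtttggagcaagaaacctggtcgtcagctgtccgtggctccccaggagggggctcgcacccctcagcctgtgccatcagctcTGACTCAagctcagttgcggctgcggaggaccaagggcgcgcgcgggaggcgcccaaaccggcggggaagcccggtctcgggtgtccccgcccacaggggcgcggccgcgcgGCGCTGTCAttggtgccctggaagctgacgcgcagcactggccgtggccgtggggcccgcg
Slc7a8, chr14:54781837-54782136, minus strand: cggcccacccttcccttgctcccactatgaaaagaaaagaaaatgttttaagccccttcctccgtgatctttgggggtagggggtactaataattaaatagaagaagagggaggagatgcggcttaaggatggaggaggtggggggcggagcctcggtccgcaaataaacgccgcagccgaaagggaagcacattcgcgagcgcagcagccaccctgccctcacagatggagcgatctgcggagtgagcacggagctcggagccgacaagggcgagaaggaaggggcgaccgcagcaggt

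The Slc1a4 promoter, lower at day 21, held TTGCATCA, the reverse complement of TGATGCAA, whose first base stands at −4 counted from 0 at the start. Of 21262 RefSeq promoters of the same length, 0.865% held this motif. The Slc36a1 promoter, also lower, held 2 E-boxes, at −31 and −3, and the second shares its last 2 bases with a match to the antioxidant response element at 1. It also held ACTTCC, the reverse complement of GGAAGT, at −180. E-boxes were in 7.84% of promoters, the antioxidant response element in 13.0% and GGAAGT in 24.8%. The Slc38a2 promoter held TGACGCGGC at −27. The Slc7a1 promoter, higher at day 21, held the AP-1 match TGACTCA at −123, a motif in 6.99% of promoters, and GCGCTGTCA, an antioxidant response element on the other strand, at −11. These 2 do not overlap each other. RefSeq lists another Slc7a1 promoter, chr5:148392766-148393065, not shown here. It overlaps no gene-end region and held none of the 5 motifs. The Slc7a8 promoter, also higher, held none of the 5. A match describes the letters in this window and does not show that a factor binds there.

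Counted region by region, 28 of the 275 transporter regions tested were called higher and 27 lower, 20% in all, against 19.3% of all 121955 regions (9.49% higher and 9.85% lower). Day 21 and day 7 libraries had no overlap in 58 of the 275, against 19.8% of all regions. The families differed in their counts. Slc1a genes had 1 region higher and 12 lower of 67, of which Slc1a2 alone gave 7 lower. Slc38a genes had 11 higher and 5 lower of 91. Slc7a genes had 13 higher and 8 lower of 83, of which Slc7a11 alone gave 5 higher and 5 lower. Slc36a genes had 2 higher and 1 lower of 27, and Slc3a2 had 1 higher and 1 lower of 7. Regions of 1 gene share its neighbourhood and are not replicates, and no test of the difference between families was made.

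**Figure D5:**
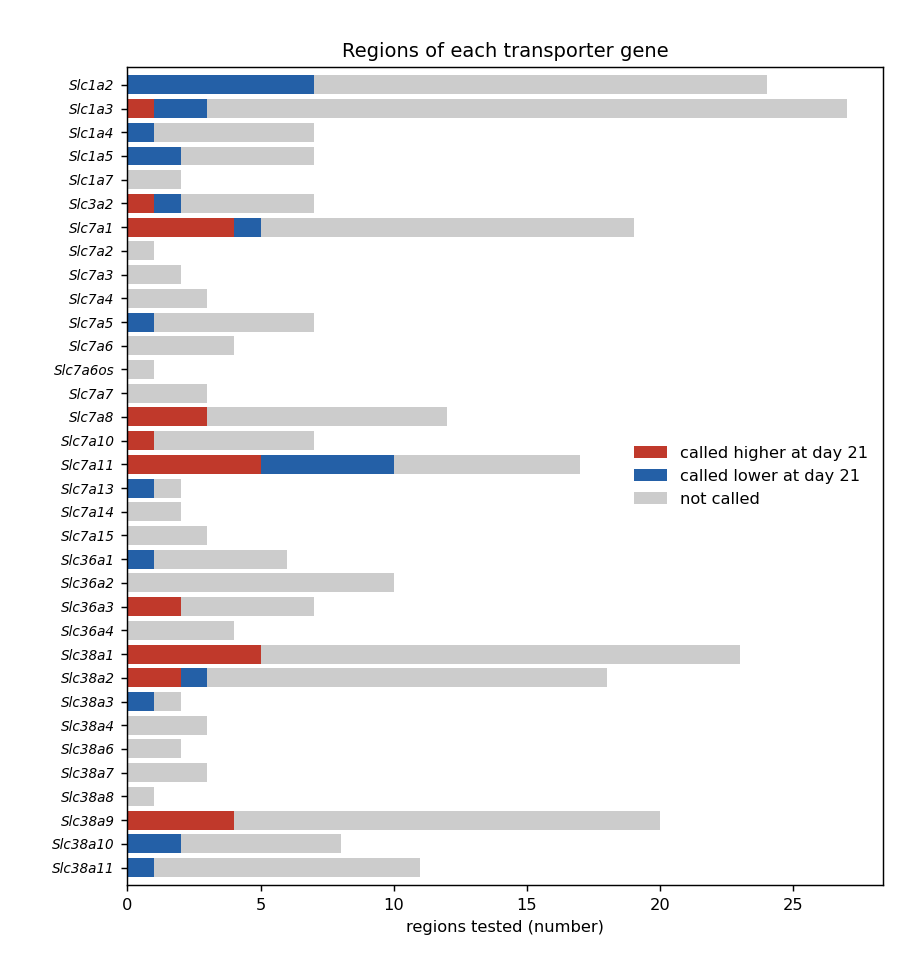
Number of regions tested for each transporter gene, divided into those called higher at day 21, called lower and not called. Slc7a11 has 5 called in each direction, Slc1a2 has 7 lower and 0 higher, and Slc38a1 has 5 higher and 0 lower.

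Summed by family, the Slc1a gene ends held 119, 126, 121 and 119 CPM at day 21, against 137, 133, 139 and 143 CPM at day 7. No day 21 library reached a day 7 library, the log2 ratio of the day means was −0.19, and Slc1a4 alone gave 51.3% of these counts. The median change of the 4 Slc1a genes tested at their ends was −0.18, against −0.09 over all genes, with 2 called lower. With trended offsets that median was −0.10, against −0.00 over all genes, and 0 of the 4 were called. Slc1a distal regions held 275 ± 2.65 CPM at day 21 and 296 ± 9.64 CPM at day 7 (log2 ratio −0.11). Slc7a gene ends held 213 ± 13.1 CPM at day 21 and 202 ± 4.97 CPM at day 7 (0.08), of which Slc7a1 gave 33.5%, and without Slc7a1 the ratio was 0.01. The Slc7a distal sum had a ratio of 0.09, with 465 ± 14.5 CPM at day 21 and 437 ± 10.99 CPM at day 7. For Slc38a the ratio was −0.08 at gene ends and 0.04 in distal regions, and the median change of its 5 members tested at gene ends was −0.08, or 0.03 with trended offsets. For Slc36a it was −0.12 at gene ends, where Slc36a4 gave 51.5% of the counts and the ratio without it was −0.31, and 0.17 in distal regions, where Slc36a3 gave 80.8% of the counts and the ratio without it was 0.00. These sums are descriptions and were not tested.

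Genes that use or sense the carried amino acids were counted in the same way, with the same shares of all genes as background. Of 33 other amino acid transporters 22 were tested at gene ends, with 3 higher and 3 lower, and 25 in distal regions, with 5 higher and 1 lower (5 and 3 at gene ends and 3 and 3 in distal regions with trended offsets). Slc16a10 (TAT1), which carries aromatic amino acids and belongs to another transporter family, had 21.4 ± 2.27 CPM at its ends at day 21 and 32.5 ± 2.69 CPM at day 7 (−0.60 ± 0.09, edgeR adjusted p = 1.69e-07), and Slc43a1, a carrier of large neutral amino acids, changed by −0.42 ± 0.14. Slc6a20a, a proline carrier, had 8.20 ± 0.890 CPM at day 21 and 4.49 ± 0.928 CPM at day 7 (0.86 ± 0.17), and Sfxn1, the mitochondrial serine carrier, changed by 0.42 ± 0.10. In distal regions the mitochondrial carriers Slc25a38, for glycine, and Slc25a13, for aspartate and glutamate, were higher by 0.28 ± 0.05 and 0.38 ± 0.09, and Slc6a15 changed by −0.48 ± 0.19.

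Of 35 genes of amino acid sensing and mTORC1 tested at their ends, 0 were higher and 16 lower (45.7%). Over all genes 6.71% were higher and 24.6% lower. The median of the list was −0.16 against −0.09 over all genes. With trended offsets 3 were higher and 5 lower, with a median of −0.07. Tsc1, a brake on mTORC1, had 16.4 ± 1.34 CPM at day 21 and 26.3 ± 2.35 CPM at day 7 (−0.68 ± 0.10, edgeR adjusted p = 7.12e-08), and Mlst8, a subunit of mTORC1, changed by −0.52 ± 0.09. Distal regions of this list went both ways, with 5 higher and 2 lower of 24. The 29.2% called was near the 29.7% of all genes. Wdr59, a subunit of the GATOR2 complex, and Rheb, the activator of mTORC1, were higher by 0.58 ± 0.10 and 0.33 ± 0.06. Castor2, which belongs to the family of arginine sensors, and Tsc1 were lower, with changes of −0.47 ± 0.07 and −0.58 ± 0.16.

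In the integrated stress response, the pathway through which amino acid shortage raises Atf4 targets, 2 genes were higher and 7 lower of 23 at gene ends (3 and 2 with trended offsets). Over all genes 6.71% were higher and 24.6% lower at gene ends. Atf3, a stress-induced factor, had 165 ± 13.6 CPM at day 21 and 97.7 ± 3.55 CPM at day 7 (0.76 ± 0.06, edgeR adjusted p = 2.31e-18), and Cebpg, a partner of Atf4, was higher by 0.32 ± 0.06. Ddit3 (CHOP) and Psph, an enzyme of serine synthesis, changed by −0.25 ± 0.06 and −0.27 ± 0.07. Distal regions gave 5 higher and 3 lower of 20, against 18.3% and 11.4% of all genes. Among them were Atf3 (0.68 ± 0.05) and Chac1, which degrades glutathione (0.46 ± 0.07), against Ddit3 (−0.36 ± 0.07) and Nupr1 (−0.41 ± 0.11). Among enzymes of amino acid metabolism 0 were higher and 7 lower of 23 at gene ends (2 and 3 with trended offsets). The 30.4% called was near the 31.3% of all genes. Those with the lowest p were Il4i1, a secreted amino acid oxidase that is also a marker of mature dendritic cells (−0.44 ± 0.07), and Gss, the glutathione synthetase (−0.47 ± 0.10). In distal regions 3 were higher and 6 lower of 22 (1 and 8 with trended offsets), 40.9% called against 29.7% of all genes. Got1 and Glud1, enzymes of glutamate metabolism, changed by 0.29 ± 0.06 and 0.22 ± 0.08, and Ido2 and Gls2, a glutaminase, by −0.49 ± 0.09 and −0.93 ± 0.21.

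The sorted cells carried accessible cDC1 marker genes at both times. For the counts of markers called, the shares over all genes were 6.71% higher and 24.6% lower at gene ends. In distal regions they were 18.3% higher and 11.4% lower. Lists of a few genes can depart from these shares by chance. The gene ends of 9 cDC1 markers summed to 360 to 379 CPM at day 21 and 340 to 369 CPM at day 7, with 2 called higher and 1 lower, and 6 of 9 were higher in distal regions. T and NK cell markers summed to 57.5 to 66.0 CPM at day 21 and 70.9 to 83.1 CPM at day 7, with 4 lower of 7. Macrophage markers summed to 61.3 to 70.4 CPM at day 21 and 55.7 to 61.1 CPM at day 7, with 3 higher of 10. Melanoma markers held 164 to 177 CPM at day 21 and 168 to 181 CPM at day 7, with 1 higher and 2 lower of 6, and Tyr had no region at its ends. No B cell (4) or neutrophil (3) marker tested was called at its ends, and 1 of 4 stromal markers was lower. In distal regions cDC1 markers summed to 856 to 899 CPM at day 21 and 740 to 785 CPM at day 7. Melanoma markers separated there, with 151 to 170 CPM at day 21 and 179 to 183 CPM at day 7 (0 higher and 2 lower of 6, or 4 lower with trended offsets). Stromal markers did so too, with 217 to 225 CPM at day 21 and 226 to 238 CPM at day 7 (0 higher and 2 lower of 6). Mature dendritic cell markers held 276 to 322 CPM at day 21 and 406 to 453 CPM at day 7, with 6 lower of 7. Distal regions of T and NK cell markers had 1 higher and 3 lower of 8, and those of macrophage markers 3 higher and 1 lower of 10. Of neutrophil markers 2 of 6 were higher, and of B cell markers 1 of 3 (1 and 0 with trended offsets). The part of these shifts in the transporter values was not tested.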

How the data were processed

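ATAC-seq counts were deposited by the authors as raw whole numbers in 1 table of 128057 regions by 8 libraries (4 at day 21 and 4 at day 7). The submitters' processing notes name bedtools, MACS2 2.1.0.20150603, SAMtools, Picard 1.65 and cutadapt 1.9, and the builds mm10 and GRCm38. Not given in the sources used here are the aligner, the merging of peaks into regions, what was counted and any shift of insertion positions. Groups and replicate numbers came from the labels. All columns were mapped to a library. Coordinates are printed as deposited; whether they count from 0 or 1 is not stated there.

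Gene positions and promoter sequences came from RefSeq tables of GRCm38.p6. The gene table has no strand, so both annotated ends of a gene were used, with windows of 1000 bp on each side. A distal region lay outside all such windows and was given to the nearest gene end within 50 kb. Counts were filtered with filterByExpr, scaled with TMM factors of the region fit (0.978 to 1.01) and tested with edgeR 4.0.16 in R 4.3.3 (glmQLFit and glmQLFTest, day as the only term). The fits covered 13569 gene-end sums, 14486 distal sums and 121955 regions, each with Benjamini-Hochberg adjustment and a threshold of 0.05. The standard error is the log2 fold change divided by the square root of F. Libraries of a day varied with a common biological coefficient of variation of 0.0657 at gene ends, 0.0722 in distal regions and 0.133 in single regions, and the fit was tested on simulated data. CPM come from edgeR's cpm function with the TMM factors. DESeq2 1.42.0, other scalings, filters, windows and distance limits, a replicate block and leaving out each library were alternatives.

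The members and the lists were chosen with earlier results of these data known. The text names every member called, 8 members chosen by function (Slc1a5, Slc3a2, Slc7a5, Slc7a11, Slc38a1, Slc38a2, Slc38a9 and Slc36a1), the called region with the smallest p of each called member at its ends and in distal regions, and the 2 genes of every list that had the lowest p in each direction. Other regions of these genes and those of Slc1a3 and Slc7a10 were described after their values were seen.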

Additional observations from a re-analysis of the deposited data

Results flagged for a closer look

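Of 132 groups of 4 libraries examined, for member sums and called regions, 3 held a library set apart from the other 3, and chance alone sets apart about 1 group in 20. In the distal sum of Slc1a5, replicate 2 of day 21 had 25.7 CPM, against 31.6 to 32.2 CPM in the other day 21 libraries, and without it the fall of Slc1a5 was not called (edgeR adjusted p = 0.129). In the Slc7a11 region chr3:50402425-50402793, replicate 1 of day 21 had 6.75 CPM, against 2.81 to 2.89 CPM in the others. In the Slc7a11 region chr3:50509510-50509877, the same library had 2.46 CPM, against 1.93 to 2.00 CPM in the others. In both regions it lay towards the day 7 values, which began at 9.44 and 2.86 CPM. The cause was not tested.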

How the results depend on the processing

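No result changed direction while called. At gene ends the count of members called lower, 4 in the fit reported, was 2 when windows spanned 2000 bp on each side and 1 under trended offsets. Leaving out 1 library at a time gave 1 to 2 members higher and 2 to 5 lower at gene ends, 2 to 3 higher and 3 to 6 lower in distal regions, and 19 to 27 regions higher and 19 to 24 lower. Family ratios without the member with the most counts were −0.16 for Slc1a distal regions, −0.31 for Slc36a gene ends, 0.0048 for Slc36a distal regions and 0.0071 for Slc7a gene ends. DESeq2 gave 2 higher and 4 lower at gene ends and 2 and 4 in distal regions. Deviations of same-numbered libraries from their day means correlated at 0.00424 to 0.00983 over regions, and those of other pairs at −0.0113 to 0.0132. Counting noise in single regions can hide a shared factor, so whether these libraries share more than a number is not settled. With that number as a replicate block, 2 members were higher and 5 lower at gene ends, 2 and 6 in distal regions, and 28 and 27 regions. Of 10 gene-end results followed by gene, 5 lost and 1 gained a call under some alternative, of 13 distal results 4 and 1, and of 33 regions 14 and 0, and the cause was not tested. Depth limits members with few counts, such as Slc7a13, and regions of a few CPM.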
